A study of Mus musculus with 70 samples.

Results

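The nuclear genes for the last 3 complexes of oxidative phosphorylation were followed across dorsal hippocampus libraries of running and sedentary mice. Members were taken by symbol, as every listed gene whose symbol begins with Uqcr, with Cox followed by a digit from 4 to 8, or with Atp5. This gave 43 of the 24346 listed genes, with 8 for complex III, 18 for complex IV and 17 for complex V. Of these, 41 had a mean of at least 1 FPKM over the 70 libraries and were tested, and the other two were Cox7b2 and Cox8c. FPKM are fragment values scaled by transcript length and by library size, so levels of different genes are compared per length.

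RNA was measured in bilateral dorsal hippocampus of adult male C57BL/6J mice, individually housed, with 10 libraries in each of 7 groups and 5 of each group in each of 2 harvest cohorts. Groups are named by days of initial voluntary wheel running, days of sedentary delay and days of reactivating running. They are 0-0-2, 14-0-0, the delayed groups 14-7-0 and 14-14-0, and 14-7-2, which ran again after the delay. Sedentary mice lived in standard cages without a wheel, and like the running mice they received the 3-min object location memory (OLM) acquisition 1 h before tissue collection. Home cage mice had neither a wheel nor OLM training.

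Complex III passes electrons from ubiquinol to cytochrome c, complex IV passes them from cytochrome c to oxygen, and both move protons out of the matrix. Complex V, the ATP synthase, lets the protons return and makes ATP. Their subunits come from the nuclear and the mitochondrial genome, and firing neurons depend heavily on the ATP they supply. The mitochondrially encoded subunits were not analysed here. In bulk tissue, fewer cells of a type and less RNA per cell cannot be told apart.

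Across the 70 libraries the members made up 2.40% to 3.42% of all FPKM, with a median of 2.79%. Of the 43 members, 34 had a mean of 96.6 FPKM or more. In complex III the highest was Uqcrh, the hinge protein of the cytochrome c1 subcomplex, at a mean of 388 FPKM (281 to 566). The lowest was Uqcrfs1, the Rieske iron-sulfur subunit, at 96.6 FPKM (80.4 to 119). In complex IV the highest was Cox6c, a small nuclear subunit, at 716 FPKM (437 to 1007), followed by Cox8a at 700 FPKM (386 to 1390). In complex V the highest was Atp5k, the e subunit of the membrane part, at 980 FPKM (501 to 1315). Atp5b and Atp5a1, the catalytic beta subunit and its alpha partner, had means of 729 and 428 FPKM. Their log2 SDs over all libraries, 0.12 and 0.09, were among the smallest of all members.

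The other 9 members were far lower. Cox8c, a testis isoform, was listed at 0 in all 70 libraries, and Cox7b2, also known from testis, had a mean of 0.687 FPKM. Cox4i2, known from lung, had a mean of 1.87 FPKM against 667 FPKM for its ubiquitous counterpart Cox4i1. Cox6a2, the heart and muscle isoform, had 4.44 FPKM against 653 FPKM for Cox6a1. Cox6b2, known from testis, had 6.29 FPKM against 526 FPKM for Cox6b1. Cox7a1 and Cox8b, both muscle isoforms, had 7.64 and 4.74 FPKM, against 243 FPKM for Cox7a2 and 700 FPKM for Cox8a. The remaining low members were Atp5s at 11.7 FPKM and Atp5sl at 19.0 FPKM. The symbol rule takes in both, although Atp5sl (also named Dmac2) is known as an assembly factor of complex I and Atp5s is not a core subunit of the ATP synthase. Cox7a2l, at 156 FPKM, is likewise no standard subunit but is known as a factor of supercomplexes of complexes III and IV. Its function in this strain was not examined.

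**Figure D1:**
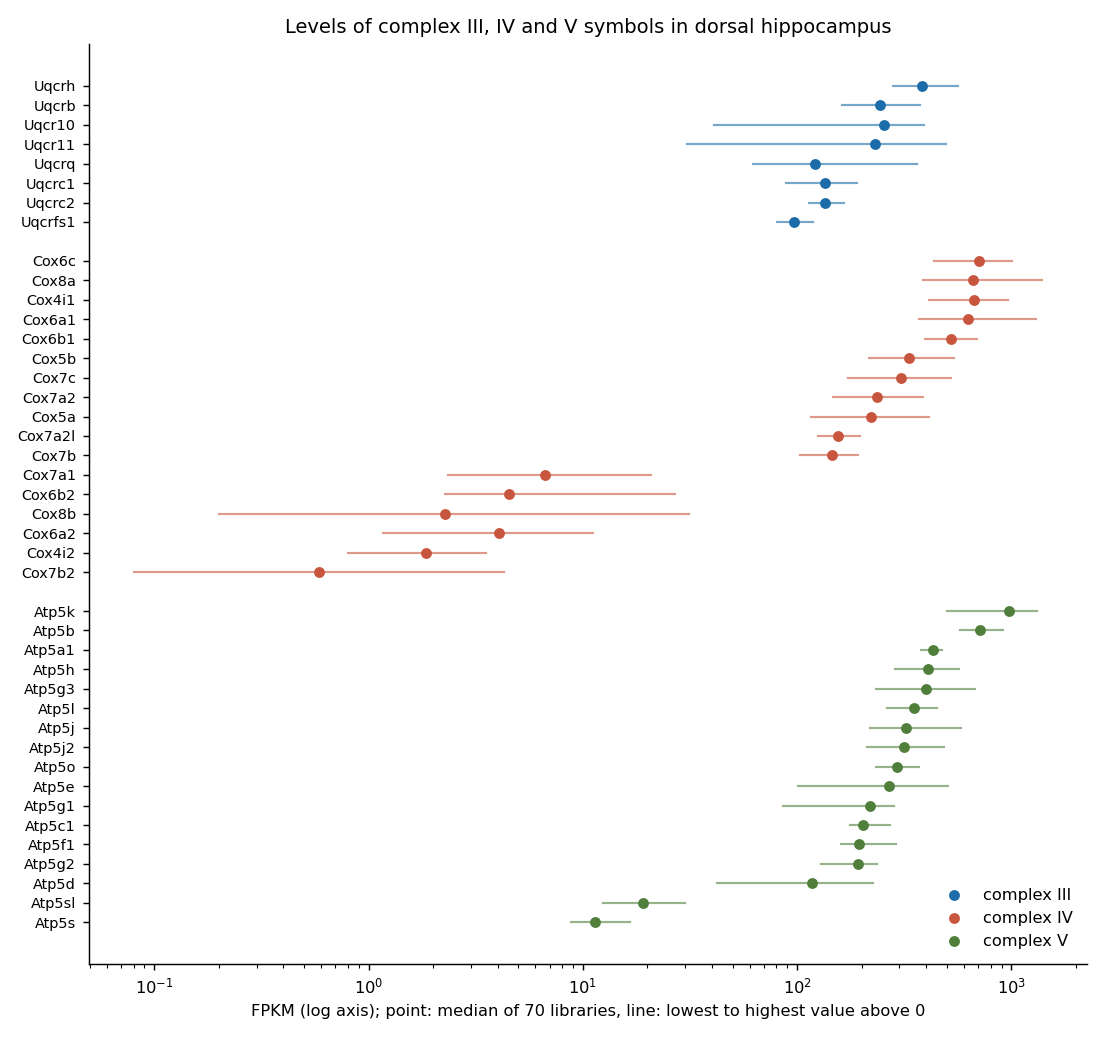
Median (point) and range of values above 0 (line) over 70 libraries for each symbol with a value above 0, by complex, on a log axis in FPKM. The tissue-restricted complex IV isoforms and Atp5s and Atp5sl lie apart from the 34 members with means from 96.6 to 980 FPKM.

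The paralogs shared their sets unequally. Cox8b made up a median of 0.346% of Cox8a and Cox8b together (0 to 5.69%), and Cox7a1 a median of 2.65% of Cox7a2 and Cox7a1 (0 to 6.81%). For Cox6b2 the median share of its pair was 0.879% (0.434% to 5.01%). The c subunits of the ATP synthase, whose rotor ring is built from an identical mature protein made by Atp5g1, Atp5g2 and Atp5g3, were divided more evenly. Atp5g3 held a median of 49.2% of their summed FPKM, Atp5g1 27.2% and Atp5g2 24.1%.

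Promoter sequences of RefSeq on GRCm38.p6, from 250 bases before to 50 bases after the start, matched 34 of the 43 members by symbol or synonym. They are shown for the abundant and the low member of the COX8 and COX7A pairs, because Cox8b and Cox7a1 were the members called higher in both 14-0-0 and 14-14-0. The start is that of the transcript used for the window, which for Cox7a1 and Cox7a2 lies inside the outer boundary of the gene. Capitals mark matches to CCGGAAG on either strand, the core letters bound by ETS factors such as GABP, which is known as an activator of respiratory chain genes.
Cox8a, chr19:7217567-7217866, - strand: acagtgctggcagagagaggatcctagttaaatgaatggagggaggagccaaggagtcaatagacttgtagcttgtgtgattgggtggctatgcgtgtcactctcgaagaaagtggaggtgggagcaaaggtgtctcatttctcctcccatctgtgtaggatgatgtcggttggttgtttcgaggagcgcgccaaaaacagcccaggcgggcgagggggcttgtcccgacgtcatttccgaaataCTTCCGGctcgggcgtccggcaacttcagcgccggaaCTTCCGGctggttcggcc
Cox8b, chr7:140900397-140900696, - strand: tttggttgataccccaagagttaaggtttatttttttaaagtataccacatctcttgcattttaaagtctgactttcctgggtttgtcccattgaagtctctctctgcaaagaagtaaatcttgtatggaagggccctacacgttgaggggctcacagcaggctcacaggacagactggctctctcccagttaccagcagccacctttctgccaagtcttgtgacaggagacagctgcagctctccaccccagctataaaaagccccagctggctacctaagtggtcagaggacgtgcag
Cox7a2, chr9:79759804-79760103, - strand: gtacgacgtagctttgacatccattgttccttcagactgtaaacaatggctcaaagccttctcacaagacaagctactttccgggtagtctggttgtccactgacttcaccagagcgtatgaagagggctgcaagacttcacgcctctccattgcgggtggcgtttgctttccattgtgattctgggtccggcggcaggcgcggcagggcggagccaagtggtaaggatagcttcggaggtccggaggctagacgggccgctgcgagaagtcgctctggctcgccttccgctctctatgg
Cox7a1, chr7:30183921-30184220, + strand: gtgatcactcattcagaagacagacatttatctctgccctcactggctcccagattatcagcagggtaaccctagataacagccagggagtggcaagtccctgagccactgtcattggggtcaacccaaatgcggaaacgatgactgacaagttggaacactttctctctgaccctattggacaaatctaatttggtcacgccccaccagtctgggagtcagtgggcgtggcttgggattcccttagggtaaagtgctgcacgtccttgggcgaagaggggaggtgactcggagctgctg

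The Cox8a window held 2 matches to CCGGAAG and 19 CpG dinucleotides, and the Cox8b window held none of these letters and 2 CpG dinucleotides. The Cox7a2 and Cox7a1 windows held no match, and had 20 and 7 CpG dinucleotides. Over the members with a promoter, CCGGAAG was present in 10 of 34 (29.4%), against 9.93% of the 27025 genes with a promoter. The core of the NRF1 motif, GCGC and TGCGC parted by any single base on either strand, was present in 8 of 34 (23.5%), against 5.19% of all. By complex, the NRF1 core was found in 1 of 5 windows of complex III, 1 of 13 of complex IV and 6 of 16 of complex V. The members' windows had a median GC content of 55.5%, against 52.7% for all. A match describes letters in the window and shows no binding.

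The question put to each comparison was whether the members shifted between a running or home cage group and the sedentary group. Each was tested by limma on log2(FPKM + 0.1), and genes whose p before adjustment lay under 0.05 were called, which is the criterion the study used. No member had an adjusted p (Benjamini-Hochberg over the 12994 tested genes) under 0.05 in any comparison. All 6 comparisons with sedentary use the same 10 sedentary libraries, and the changes of different groups are therefore given side by side.

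After 14 days of running without delay (14-0-0), all 3 complexes had a positive median shift. The median log2 fold change against sedentary was 0.04 over the 8 members of complex III, 0.05 over the 16 of complex IV and 0.03 over the 17 of complex V, while the median of all tested genes was 0.01. Of the 41 members, 28 had a higher mean than in sedentary and 13 a lower one. The direction of this shift was not the same in the harvest cohorts. The median over the 41 was 0.05 in all libraries, -0.05 in cohort 1 alone and 0.12 in cohort 2 alone. Cohort 1 holds sedentary replicate 4, which had the highest summed FPKM of complex III (2287) and of complex IV (6737) of all 70 libraries. The part of that library in the cohort 1 values was not tested. Calls were made for 5 members, all higher, whereas 6.11% of all tested genes were called higher and 9.15% in either direction. These were Uqcrc2 of complex III, Atp5s of the complex V symbols, and the paralogs Cox8b, Cox7a1 and Cox6b2 of complex IV. The smallest adjusted p was 0.293 (limma).

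The Cox8b gene lies at chr7:140898945-140900446 on the minus strand and Cox7a1 at chr7:30184144-30186078 on the plus strand (GRCm38.p6). Cox8b had a median of 5.40 FPKM in 14-0-0 (0.919 to 27.6), against 1.38 FPKM in sedentary (0.200 to 7.46). The groups overlapped, and 4 of the 10 libraries lay above every sedentary library. Cox8b rose by a log2 fold change of 2.04 (SE 0.64, unadjusted p = 0.0045, adjusted p = 0.312, limma), or 4.12-fold on this scale, with 9 of 10 libraries above the sedentary median. Cox7a1 had a median of 9.12 FPKM in 14-0-0 (5.27 to 16.5) and 5.0 FPKM in sedentary (3.70 to 9.54). Its log2 fold change was 0.77 (SE 0.22, unadjusted p = 0.0026, adjusted p = 0.293, limma). All 10 libraries lay above the sedentary median and 5 above every sedentary library, yet the ranges overlapped.

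Cox6b2 had a median of 5.67 FPKM in 14-0-0 (3.39 to 19.9) and 4.44 FPKM in sedentary (2.50 to 7.12). It rose by 0.64 on the log2 scale (SE 0.30, unadjusted p = 0.0457, adjusted p = 0.535, limma). A few libraries carried that rise, since 4 of 10 lay above every sedentary library while the medians differed little. The abundant partners were not called: log2 fold changes were 0.05 (SE 0.19) for Cox8a, 0.11 (SE 0.12) for Cox7a2 and 0.10 (SE 0.08) for Cox6b1.

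Uqcrc2 encodes core protein 2 of complex III. It had a median of 146 FPKM in 14-0-0 (127 to 158) and 129 FPKM in sedentary (114 to 150), a log2 fold change of 0.15 (SE 0.06, unadjusted p = 0.0149, adjusted p = 0.393, limma). Atp5s had 12.5 FPKM (10.5 to 15.6) and 11.1 FPKM (8.85 to 13.7), a log2 fold change of 0.20 (SE 0.08, unadjusted p = 0.0222, adjusted p = 0.436, limma). Both pairs of ranges overlapped over most of their length. Exons of Uqcrc2 overlap those of Pdzd9 on the opposite strand, and reads of the library kit used do not tell the strands apart.

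**Figure D2:**
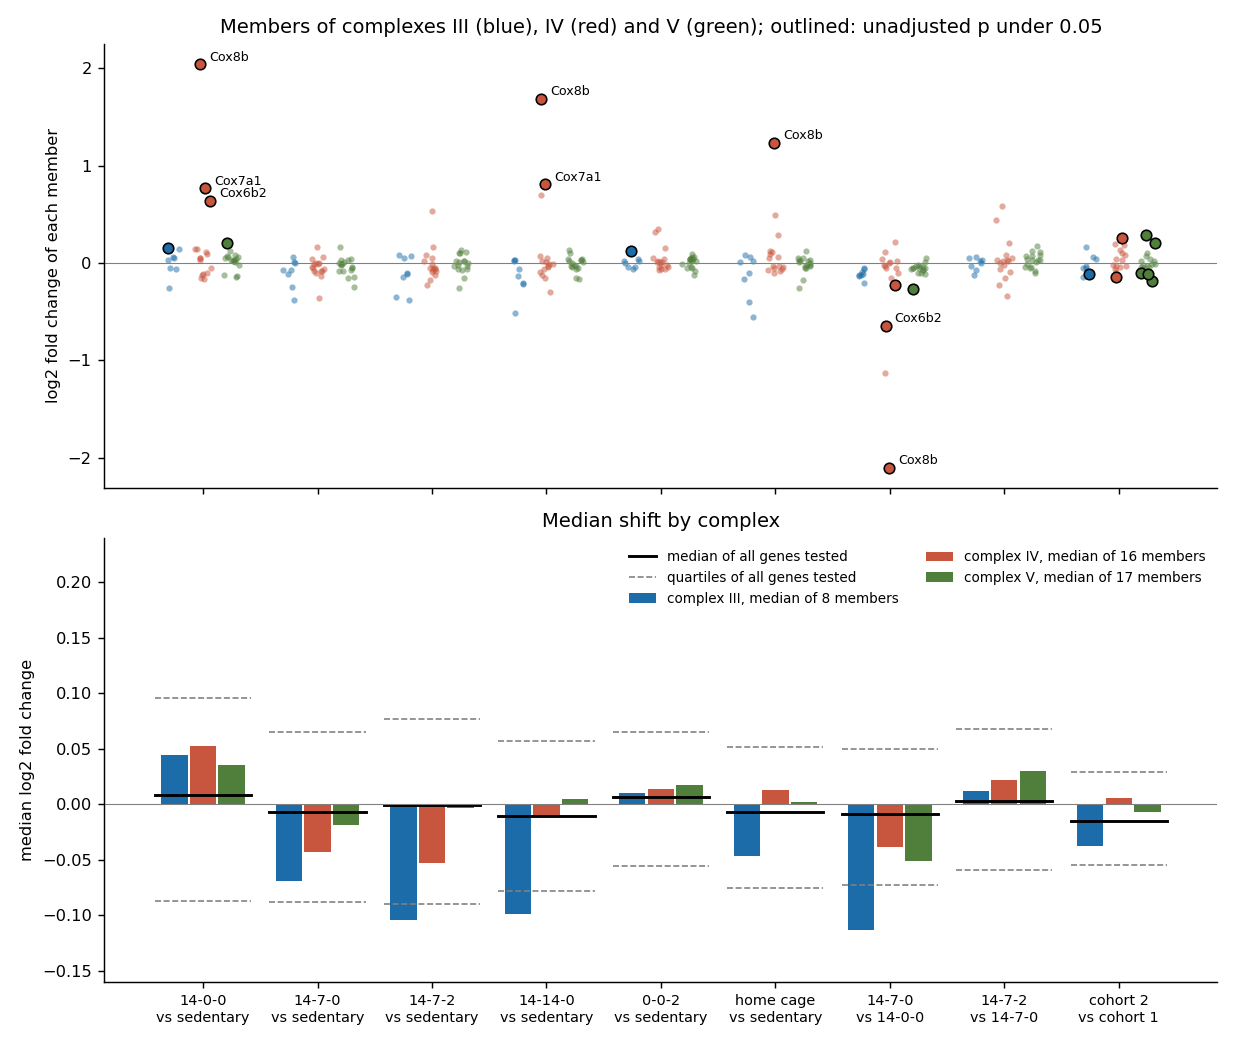
Upper panel, log2 fold change of each tested member in 9 comparisons, with members called at an unadjusted p under 0.05 outlined. Lower panel, median log2 fold change of each complex as bars, with the median and quartiles of all tested genes as lines; the bars lie between -0.11 and 0.05.

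The other running groups gave fewer calls. In 14-7-0, with 7 days of rest after running, the medians were -0.07 for complex III, -0.04 for complex IV and -0.02 for complex V, and 30 of 41 members had a lower mean than in sedentary. None of the 41 was called by limma at an unadjusted p under 0.05, against 3.26% of all genes, and Cyber-T on log2 values also called none. The smallest unadjusted p was 0.0755. In 14-7-2, where 2 days of running followed the delay, the medians were -0.10, -0.05 and 0.00 for complexes III, IV and V. Again none was called by limma or by Cyber-T, against 4.39% of all genes, and the smallest unadjusted p was 0.118.

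After the longer delay of 14-14-0, the medians were -0.10 for complex III, -0.01 for complex IV and 0.00 for complex V. Of the 41 members, only Cox7a1 and Cox8b were called, both higher, against 3.19% of all genes called higher and 4.95% in either direction. Cox8b had a median of 5.51 FPKM (0.573 to 24.1) and a log2 fold change of 1.69 (SE 0.70, unadjusted p = 0.0247, adjusted p = 0.974, limma). Cox7a1 had a median of 9.93 FPKM (4.64 to 18.2) and a log2 fold change of 0.81 (SE 0.26, unadjusted p = 0.0058, adjusted p = 0.974, limma). For both genes some 14-14-0 libraries lay within the sedentary range, while 4 libraries for Cox8b and 6 for Cox7a1 exceeded it. Cox6b2 exceeded it in 5 libraries and reached 26.8 FPKM, with a log2 fold change of 0.70 (SE 0.38, unadjusted p = 0.0792).

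With 2 days of running alone (0-0-2) the medians were 0.01, 0.01 and 0.02 for complexes III, IV and V. Uqcrc2 was the only member called, against 2.37% of all genes, at a median of 142 FPKM (127 to 156). Its log2 fold change was 0.13 (SE 0.06, unadjusted p = 0.0299, limma), and without sedentary replicate 6 it was 0.11 (unadjusted p = 0.0549) and no member was called. Within harvest cohorts 1 and 2 it was 0.06 and 0.20, not called in either. In home cage mice the medians were -0.05, 0.01 and 0.00. Cox8b was the only member called, against 2.3% of all genes, with a median of 3.01 FPKM (1.15 to 31.2) and a log2 fold change of 1.24 (SE 0.59, unadjusted p = 0.0474, limma). Without sedentary replicate 6, Cox7a1 was called as well, for 2 members in all. Cox8b was at 1.39 and 1.09 within cohorts 1 and 2 and was called in neither.

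Groups of running mice were also compared directly. In 14-7-0 against 14-0-0, 34 of 41 members had a lower mean, including all 8 of complex III. The medians were -0.11, -0.04 and -0.05 for complexes III, IV and V, and -0.01 for all genes. In harvest cohort 1 alone they were 0.02, 0.03 and -0.02, with 1 member called higher and 2 lower, and in cohort 2 alone -0.14, -0.15 and -0.08, so that the direction for complexes III and IV turned in cohort 1. In all libraries, calls were made for 4 members, all lower, against 3.6% of all genes called lower and 5.63% in either direction. The smallest adjusted p was 0.721 (limma).

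Atp5g1, the first of the c subunit genes, had a median of 198 FPKM in 14-7-0 (139 to 234) and 231 FPKM in 14-0-0 (200 to 275). It fell by 0.27 on the log2 scale (SE 0.07, unadjusted p = 0.0015, adjusted p = 0.721, limma), and only 1 of 10 libraries lay above the 14-0-0 median. Cox7b, a small complex IV subunit, had medians of 131 FPKM (120 to 184) and 158 FPKM (130 to 193) and fell by 0.22 on the log2 scale (SE 0.09, unadjusted p = 0.0186). Both genes were abundant in every library, and the ranges overlapped.

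Cox8b had a median of 1.57 FPKM in 14-7-0 (0 to 6.09), with a log2 difference from 14-0-0 of -2.10 (SE 0.69, unadjusted p = 0.0063, limma). The value of 0 was that of 14-7-0 replicate 4, and without that library the log2 difference was -1.68 and was still called, with Cox7a1 called lower as well. Cox6b2 had a median of 4.39 FPKM (3.06 to 6.80) and fell by 0.65 on the log2 scale (SE 0.29, unadjusted p = 0.0354, limma). In 14-7-2 against 14-7-0 the medians were 0.01, 0.02 and 0.03. No member was called there by limma or by Cyber-T, against 5.39% of all genes, and the smallest unadjusted p was 0.0852.

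The cell layer that secretes cerebrospinal fluid, the choroid plexus epithelium, lies in the ventricle beside the hippocampus, and its markers moved with Cox8b, Cox7a1 and Cox6b2. All 16 markers of the list were tested, and their summed level ran from 27.6 to 22216 FPKM across libraries. Ttr, the transthyretin gene, carried most of the highest sums, and without it the range was 11.2 to 972 FPKM. The sum of all 16 had a range of 27.6 to 384 FPKM in sedentary, 39.8 to 16367 FPKM in 14-0-0, 51.5 to 22216 FPKM in 14-14-0 and 75.8 to 15852 FPKM in home cage. It ran from 31.9 to 2180 FPKM in 14-7-0, from 39.8 to 2494 FPKM in 14-7-2 and from 28.0 to 11293 FPKM in 0-0-2. Of the 16, all were called higher in 14-0-0 and in 14-14-0, 7 in home cage, and all 16 lower in 14-7-0 against 14-0-0. The shares over all genes were 6.11% and 3.19% higher in 14-0-0 and 14-14-0, and 3.6% lower in 14-7-0 against 14-0-0. In home cage the share was 2.3% in either direction. None of the markers was at 0 in every library.

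A score per library, taken as the average deviation of the 16 markers from their own means in log2 units, fell into 2 separate clusters. There were 55 libraries at 1.68 or below and 15 at 2.60 or above. The higher cluster held 5 libraries of 14-0-0, 5 of 14-14-0, 3 of home cage, 1 of 0-0-2 and 1 of 14-7-2, and none of sedentary or 14-7-0. Cox8b had a median of 13.9 FPKM in the 15 libraries (3.78 to 31.2) and 1.67 FPKM in the 55 (0 to 7.52). Cox7a1 had 14.0 FPKM (7.96 to 20.9) and 6.12 FPKM (0 to 12.1), and Cox6b2 had 14.5 FPKM (2.27 to 26.8) and 4.10 FPKM (2.28 to 7.12).

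**Figure D3:**
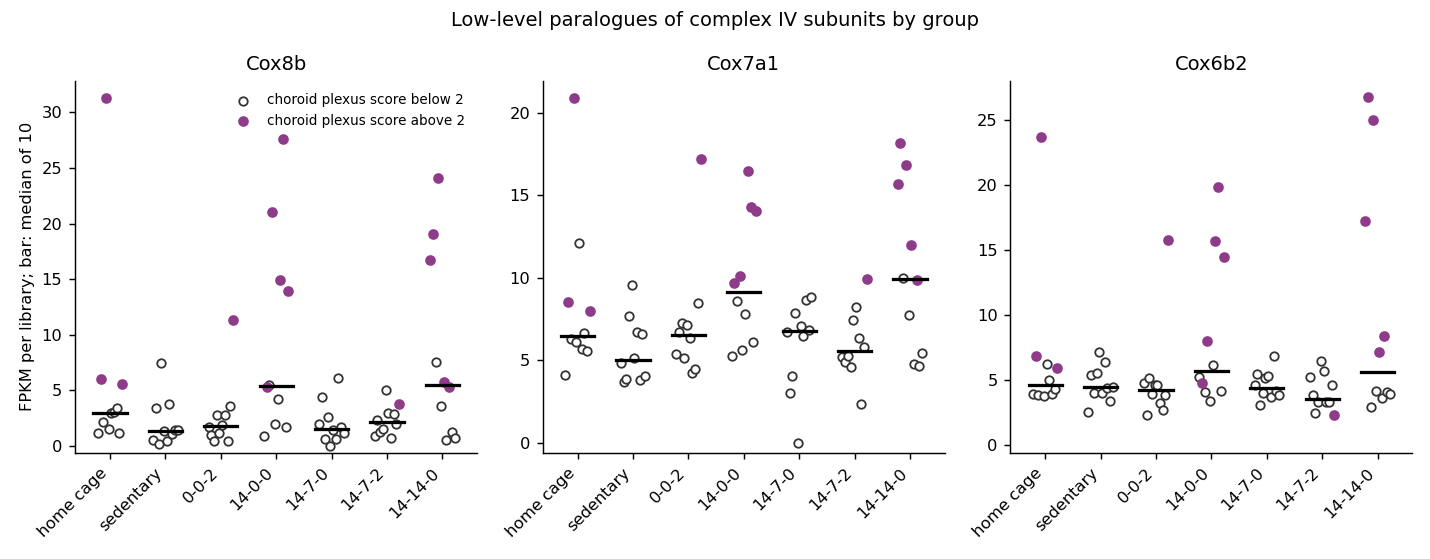
FPKM of Cox8b, Cox7a1 and Cox6b2 in each library by group, with the group median as a bar and the 15 libraries of choroid plexus score above 2 filled. The highest values of each gene, up to 31.2 FPKM for Cox8b, belong to filled points in home cage, 0-0-2, 14-0-0 and 14-14-0.

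Within each cluster the 3 genes also varied with the score. For Cox8b, Pearson's r was 0.64 over the 55 libraries (Spearman's rho 0.64, both permutation p = 1e-05, adjusted p = 2.4e-05) and 0.71 over the 15 (rho 0.65, permutation p = 0.0038 and 0.0109, adjusted p = 0.0046 and 0.0119). The value 1e-05 is the smallest that the 100000 permutations can give, and adjustment was made over 12 relations. For Cox7a1, r was 0.33 over the 55 (rho 0.35, permutation p = 0.0269 and 0.0082, adjusted p = 0.0293 and 0.0098) and 0.82 over the 15 (rho 0.84, permutation p = 0.00039 and 0.00023, adjusted p = 0.000585 and 0.000345). For Cox6b2, r was 0.46 over the 55 (rho 0.42, permutation p = 0.00036 and 0.0014, adjusted p = 0.000585 and 0.0019) and 0.78 over the 15 (rho 0.87, permutation p = 0.00083 and 9e-05, adjusted p = 0.0011 and 0.000154).

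Without the 2 libraries farthest from the median score, the r over the 55 and over the 15 was 0.64 and 0.67 for Cox8b, 0.36 and 0.85 for Cox7a1, and 0.46 and 0.72 for Cox6b2. Over the 55 libraries, r in harvest cohorts 1 and 2 was 0.67 and 0.59 for Cox8b, 0.33 and 0.40 for Cox7a1, and 0.32 and 0.65 for Cox6b2. Over the 15, with 7 and 8 libraries, it was 0.75 and 0.74, 0.90 and 0.69, and 0.92 and 0.65.

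**Figure D4:**
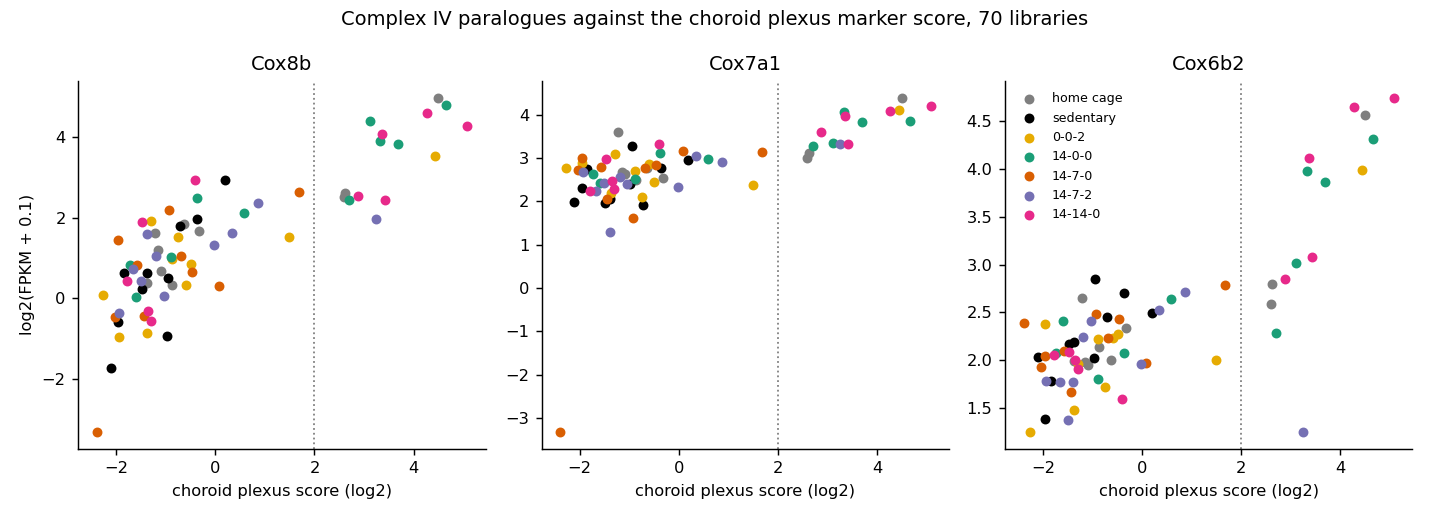
log2(FPKM + 0.1) of Cox8b, Cox7a1 and Cox6b2 against the choroid plexus score of each of 70 libraries, colored by group, with a dotted line between the clusters of 55 and 15 libraries. Cox8b rises with the score in both clusters (r = 0.64 and 0.71).

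When this score was added to the fit, calls of these 3 genes were lost in every comparison. In 14-0-0 against sedentary the log2 fold change was 0.26 for Cox8b (unadjusted p = 0.577), 0.20 for Cox7a1 (unadjusted p = 0.307) and -0.18 for Cox6b2 (unadjusted p = 0.416). Of the 5 members called in 14-0-0, only Atp5s remained (0.25, unadjusted p = 0.0222), and Uqcrc2 was at 0.14 (unadjusted p = 0.0678). In 14-14-0 Cox8b was at 0.15 and Cox7a1 at 0.21, and neither was called. In 14-7-0 against 14-0-0, Atp5g1 (-0.27) and Cox7b (-0.25) were still called, whereas Cox8b (-0.52) and Cox6b2 (0.01) were not. Over all genes the share called also fell with the score, from 9.15% to 5.45% in 14-0-0 and from 4.95% to 1.15% in 14-14-0. It fell from 2.3% to 0.9% in home cage and from 5.63% to 2.03% in 14-7-0 against 14-0-0. In 14-7-0 against sedentary, 0-0-2 and between cohorts it rose, to 3.92%, 2.51% and 14.2%. No sedentary or 14-7-0 library lay in the higher cluster, so score and group are partly confounded in these fits. Meningeal and fibroblast markers also moved, with 5 of 8 tested called higher in 14-0-0, 3 in 14-7-0, 6 in 14-14-0 and 6 in home cage. In the fit without the score, 6.11% of all genes were called higher in 14-0-0 and 3.19% in 14-14-0. In either direction the shares were 3.26% in 14-7-0 and 2.3% in home cage. The part of these markers in the results was not tested.

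Within the harvest cohorts the same 3 genes gave unequal values. In 14-0-0 against sedentary, Cox8b had a log2 fold change of 1.5 in cohort 1 (unadjusted p = 0.154) and 2.59 in cohort 2 (unadjusted p = 0.0066). Cox6b2 had 0.07 and 1.2 there, and Cox7a1 0.45 and 1.08. In 14-14-0 the order was the opposite, with 2.97 in cohort 1 (unadjusted p = 0.0054) and 0.41 in cohort 2 (unadjusted p = 0.587) for Cox8b. Uqcrc2 in 14-0-0 had 0.19 (unadjusted p = 0.0259) and 0.12 (unadjusted p = 0.197), and Atp5s had 0.28 (unadjusted p = 0.0296) and 0.13 (unadjusted p = 0.235). In 14-7-0 against 14-0-0, Cox7b had -0.31 and -0.14, Cox8b -1.90 and -2.30, and Cox6b2 -0.16 and -1.13. Atp5g1 in 14-7-0 against 14-0-0 had -0.16 (unadjusted p = 0.0465) and -0.38 (unadjusted p = 0.0118). Each cohort holds 5 libraries of a group, and the difference between cohorts in these effects was not tested.

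Group means of the 34 abundant members stayed close together. The ratio of the highest to the lowest group mean had a median of 1.1 over these members and was under 1.2 for 28 of them. It was smallest for Atp5o, the stalk subunit OSCP, at 1.03, and largest for Uqcrq, a small ubiquinone-binding subunit, at 1.6. Uqcrq had means of 117 FPKM in home cage and 188 FPKM in sedentary. Its sedentary libraries ran from 68.9 to 359 FPKM with a median of 155 FPKM, and the home cage libraries from 62.9 to 174 FPKM with a median of 107 FPKM. The log2 fold change of Uqcrq was -0.56 (SE 0.28, unadjusted p = 0.0583) in home cage and -0.51 (SE 0.27, unadjusted p = 0.0719) in 14-14-0, and neither was called. Without sedentary replicate 6 they were -0.43 and -0.39. Complex III summed to 1299 to 2287 FPKM per library, complex IV to 3606 to 6737 FPKM and complex V to 4539 to 6895 FPKM.

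Members differed in how far they spread between libraries. Uqcr11 and Uqcrq had log2 SDs of 0.70 and 0.67 over all libraries and Uqcr10 0.48, while Uqcrc2 and Uqcrfs1 had 0.13. In complexes IV and V, the abundant members with the largest SD were Cox8a at 0.44, Atp5d at 0.41 and Atp5e at 0.40, the latter pair encoding the delta and epsilon subunits of the central stalk. Uqcr11 ran from 30.6 to 493 FPKM, with medians from 200 FPKM in 14-7-2 to 269 FPKM in sedentary and ranges that overlapped in all 7 groups.

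Several of these members moved with a measure of GC content. For each library a GC slope was fitted over the tested genes with a transcript (95.5%), as the change in the log2 deviation from the gene's mean per 10 points of GC. The members were themselves among the genes fitted. Uqcr11, Uqcrq, Uqcr10, Atp5d and Atp5e were chosen after their values were seen, and adjustment covered 12 relations rather than all 41 members. The p-values of these relations are therefore descriptive. Group medians of the slope lay between -0.02 and 0.08, with a range over libraries of -0.58 to 0.46. Uqcr11, with a transcript GC of 58.9%, had a Pearson's r of 0.84 with the slope over 70 libraries (rho 0.81, both permutation p = 1e-05, adjusted p = 2.4e-05). Atp5d, at 61.1% GC, had r = 0.86 (rho 0.80), Uqcr10, at 55.5%, r = 0.74 (rho 0.63) and Uqcrq, at 50.2%, r = 0.65 (rho 0.69). Each had the same permutation p and adjusted p. The GC of Uqcrq lay below the median of the tested genes with a transcript, 51.0%. For Atp5e, r was 0.49 (rho 0.47, permutation p = 2e-05 and 4e-05, adjusted p = 4e-05 and 8e-05). Cox8a, at 58.5% GC, had r = 0.03 (rho 0.06, permutation p = 0.812 and 0.649, adjusted p = 0.812 and 0.649).

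Without the 2 libraries farthest from the median slope, r was 0.80 for Uqcr11, 0.81 for Atp5d, 0.68 for Uqcr10, 0.68 for Uqcrq, 0.56 for Atp5e and 0.04 for Cox8a. In harvest cohorts 1 and 2, r was 0.70 and 0.94 for Uqcr11, 0.87 and 0.85 for Atp5d, 0.59 and 0.91 for Uqcr10, and 0.66 and 0.63 for Uqcrq. For Atp5e the relation held in cohort 1 (0.79) and not in cohort 2 (0.10), and for Cox8a the sign differed (0.32 and -0.35). Across members, 15 of the 21 at or above the median GC and 7 of the 20 below it had a positive r, a description since they share the same libraries.

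**Figure D5:**
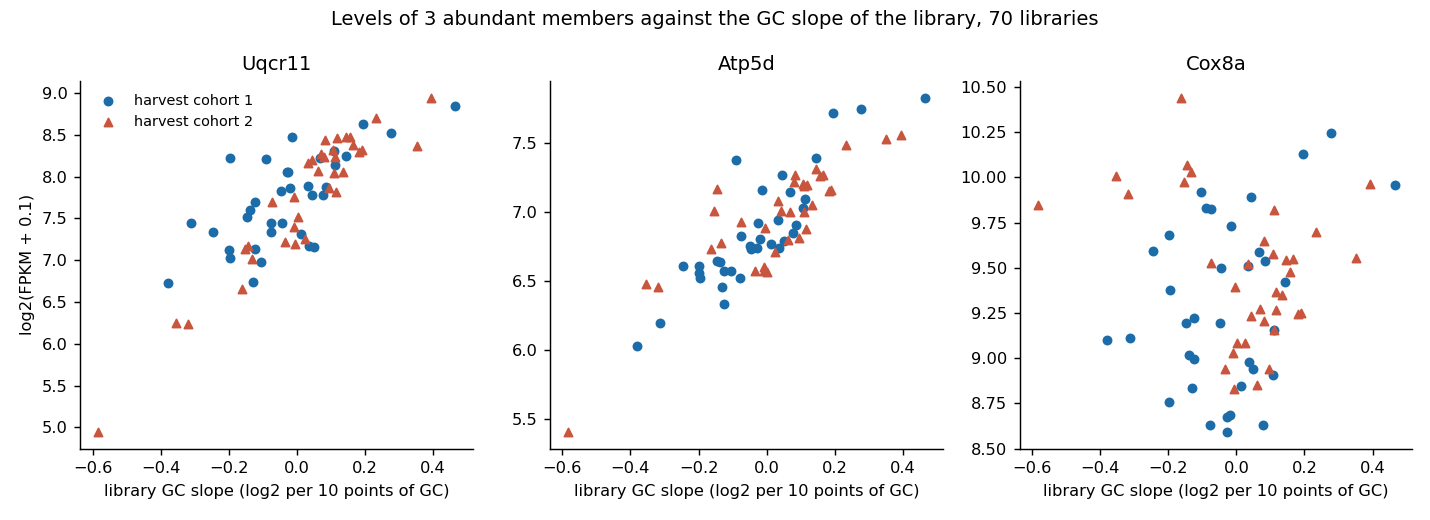
log2(FPKM + 0.1) of Uqcr11, Atp5d and Cox8a against the GC slope of each of 70 libraries, with harvest cohorts 1 and 2 as circles and triangles. Uqcr11 and Atp5d rise with the slope (r = 0.84 and 0.86) and Cox8a does not (r = 0.03).

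With the GC slope as a covariate, the complex III medians against sedentary moved from -0.10 to 0.00 in 14-7-2, from -0.10 to -0.05 in 14-14-0, from -0.07 to -0.04 in 14-7-0 and from -0.05 to 0.02 in home cage. The median moved little in 14-7-0 against 14-0-0 (-0.11 to -0.10) and between cohorts (-0.04 to -0.05). In 14-0-0 the medians of complexes III, IV and V were 0.10, 0.08 and 0.07 in that fit, and 7 members were called, all higher. Of the 12994 genes tested in that fit, 815 were called higher and 431 lower, or 9.59% in either direction. In 14-14-0 Uqcrq was called as well, lower by a log2 fold change of -0.28 (unadjusted p = 0.0333), and in home cage Cox8b was at 1.07 (unadjusted p = 0.0905) and no longer called. Without sedentary replicate 6 the complex III medians were -0.08 in 14-7-2, -0.07 in 14-14-0, -0.04 in 14-7-0 and -0.02 in home cage. The part of GC content in the group values was not otherwise tested.

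The harvest cohorts were compared over 35 libraries each. With group as a covariate, 8 members were called between cohort 2 and cohort 1, 3 higher and 5 lower, against 3.58% of all genes called higher, 8.29% lower and 11.9% in either direction. With each library scaled by its median ratio, the split was 4 higher and 4 lower, against 10.8% of all genes in either direction in that fit. The smallest adjusted p was 0.103 (limma).

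Atp5g3 ran from 234 to 483 FPKM in cohort 1 (median 379) and from 303 to 675 FPKM in cohort 2 (median 408), with a log2 difference of 0.20 (SE 0.07, unadjusted p = 0.0031). It was higher in cohort 2 in all 7 groups. The other c subunit genes went down, Atp5g1 by 0.18 on the log2 scale (SE 0.06, unadjusted p = 0.0028) and Atp5g2 by 0.10 (SE 0.04, unadjusted p = 0.0101). Atp5g2 was lower in cohort 2 in 7 of 7 groups and Atp5g1 in 6. The median share of Atp5g3 was 45.8% in cohort 1 and 50.3% in cohort 2, while that of Atp5g1 was 28.2% and 26.1%.

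Atp5e had a median of 242 FPKM in cohort 1 (100 to 505) and 297 FPKM in cohort 2 (189 to 447), a log2 difference of 0.29 (SE 0.09, unadjusted p = 0.0022), with 7 of 7 groups higher. Cox5a, a nuclear subunit of complex IV, had 206 FPKM (116 to 291) and 226 FPKM (182 to 413), a log2 difference of 0.25 (SE 0.08, unadjusted p = 0.0018), higher in 6 of 7 groups. Cox7b had 150 FPKM (114 to 193) and 134 FPKM (103 to 191) and was lower by a log2 difference of -0.15 (SE 0.04, unadjusted p = 0.0016). Uqcrb (-0.11, unadjusted p = 0.0424) and Atp5s (-0.11, unadjusted p = 0.0066) were the remaining calls. The ranges of the cohorts overlapped for each of these genes.

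Within a library the complexes did not always go together. As a score, the median over a complex's tested members of the deviation from each gene's mean was taken, in log2 units. All 3 scores were above 0 in 21 of 70 libraries and below 0 in 18, and they were of mixed sign in 31. The complex III score ran from -0.25 to 0.37, that of complex IV from -0.31 to 0.49 and that of complex V from -0.22 to 0.29. Median complex III scores by group were highest in 14-0-0 (0.07, range -0.21 to 0.28) and lowest in 14-14-0 (-0.05, range -0.11 to 0.04), and the ranges of all groups overlapped.

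Other genes of the pathway were counted from lists by the same test. Cyc1 of complex III and Ndufa4 of complex IV, subunits outside the symbol rule, were called in no comparison. Usmg5, Atpif1 and 2010107E04Rik, listed as further complex V subunits and the inhibitor, were called in no comparison. The same list held 1810058I24Rik, whose place in complex V was not checked. This gene was called higher in 14-0-0 (0.17, SE 0.06, unadjusted p = 0.0068, limma) and lower in 14-7-0 against 14-0-0 and in cohort 2. Cycs, the electron carrier cytochrome c, rose by a log2 fold change of 0.16 in 14-0-0 (SE 0.07, unadjusted p = 0.0235) and was lower in cohort 2. No gene of complex II (4 tested) was called in any comparison.

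Of 45 symbols beginning with Nduf, mostly of complex I, 1 was called higher in 14-0-0 and 2 lower in 14-14-0. None was called in the other 4 comparisons with sedentary, and 5 were higher and 7 lower in cohort 2. These symbols take in Ndufa4 of complex IV and assembly factors such as Ndufaf2, which was 1 of the 2 in 14-14-0. Over all genes, 6.11% were called higher in 14-0-0, and 4.95% in 14-14-0 and 11.9% between cohorts were called in either direction. The single gene in 14-0-0 was Ndufa1 (0.39, SE 0.11, unadjusted p = 0.0015), and the median of the 45 was 0.00. Of 13 tricarboxylic acid cycle genes, Dld and Suclg2 were called higher in 14-0-0, and Idh3a, Ogdh and Suclg2 lower in 14-7-0 against 14-0-0. Idh3a was also called higher in 14-7-2 against 14-7-0, and between cohorts 1 of the 13 was higher and 2 were lower. The shares over all genes were 6.11% higher in 14-0-0 and 3.6% lower in 14-7-0 against 14-0-0. In 14-7-2 against 14-7-0 the share was 5.39% in either direction. Suclg2, a subunit of succinyl-CoA ligase, changed by 0.26 (unadjusted p = 0.0057) and by -0.25 (unadjusted p = 0.0151).

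Of 23 tested assembly factors of complex IV, Pet100 was called higher in 14-0-0, Cox15, needed for heme a, higher in 14-7-2, and Cmc2 lower in 14-14-0 and in home cage. Between cohorts, 2 of the 23 were called higher and 4 lower. Among 6 assembly factors of complex III, Lyrm7 was called higher in 14-0-0, and 1 was higher and 2 lower between cohorts, whereas none of 3 for complex V was called in any comparison. The shares over all genes were 6.11% higher in 14-0-0, and 3.58% higher and 8.29% lower between cohorts. In either direction they were 9.15% in 14-0-0, 4.39% in 14-7-2, 4.95% in 14-14-0 and 2.3% in home cage. Of 12 regulators of mitochondrial biogenesis, only Pprc1 was called in a comparison of groups, lower in 14-0-0 (-0.13, SE 0.06, unadjusted p = 0.0243). Gabpa, whose exons overlap those of Atp5j on the opposite strand, was lower in cohort 2 (-0.14, unadjusted p = 0.0013). Ppargc1a, the main coactivator of mitochondrial biogenesis, was called in no comparison.

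Some libraries stood apart as a whole. In 14-7-0 replicate 4, 10279 genes were listed at 0, against 6243 to 7199 in the other libraries, and its relative depth, estimated from the smallest FPKM steps with sedentary replicate 0 set to 1, was 0.0361, against 0.346 to 1.48. Sedentary replicate 6 had a summed level of dentate gyrus granule cell markers of 20.4 FPKM, against 55.0 to 207 FPKM elsewhere, and of thalamus markers of 102.6 FPKM, against 12.8 to 95.9 FPKM. Its oligodendrocyte markers summed to 7525 FPKM, above the 1448 to 5347 FPKM of the others, and its CA1 and CA3 pyramidal cell markers to 148 FPKM, below their 173 to 397 FPKM. Markers of neurons, astrocytes, microglia and oligodendrocytes of the hippocampus were otherwise present in every library. Oligodendrocyte markers were called lower in 0-0-2 (6 of 10) and higher in 14-7-0 against 14-0-0 (6 of 10) and again lower in 14-7-2 against 14-7-0 (6 of 10), and their part in the results was not tested. The shares over all genes in either direction were 2.37%, 5.63% and 5.39% in that order.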

How the data were processed

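RNA-seq libraries from 70 dorsal hippocampi were analysed, 10 in each of 7 groups, grouped by their labels. The authors deposited FPKM values. Per the study's methods, 50-bp reads were aligned with ELAND v2e and Bowtie, unique reads with at most 2 mismatches were kept, and the Tuxedo tools computed the values. The submitters' processing notes name Bowtie, Cuffnorm and mm10, and versions are not given in the sources used here. The libraries were made with an unstranded kit, so overlapping genes on opposite strands cannot be told apart.

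Testing was limited to the 12994 of 24346 genes that averaged 1 FPKM or more. They were compared pairwise on log2(FPKM + 0.1), two-sided, without covariates, with the moderated test of limma 3.58.1 (R 4.3.3) and a mean-variance trend. The call threshold was p = 0.05 before adjustment. Adjusted values (Benjamini-Hochberg) were computed over all tested genes. Fold changes on this scale understate the change of low genes. The cohort comparison had group as a covariate. Tables, correlations and permutation tests were computed in Python 3.11.15 with scipy 1.17.1. The labels give each replicate a harvest cohort and do not state that replicates are separate animals, and p-values measure the spread between samples. No libraries were identical (0 pairs).

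The read totals the study lists carry index names that differ from the sample labels, and were not used here. The file of values holds no counts, so the absolute depth of a library is not known, and intervals for counting error could not be computed. On data simulated for 14-0-0 versus sedentary over 12994 genes, 90 of 99 changes of log2 size 0.5 and 97 of 100 of size 1 were recovered. Recovery meant an unadjusted p under 0.05 (limma). The noise was normal and independent for each gene and library, without the GC slope or choroid plexus differences of the real libraries. Smaller changes, such as those of the abundant members, were not simulated.

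Values were named for the highest and lowest member of each complex, the called members (at most 8 per comparison), the paralogous isoforms, matches that are no subunit, untested members, and called genes of the other lists. Members named for their spread or GC relation (Uqcrq, Uqcr11, Uqcr10, Atp5d, Atp5e, Atp5o, Atp5b, Atp5a1) were chosen after their values were seen. The members and all lists were chosen with earlier results of these data known. Alternatives were a pseudocount of 1, no minimum mean, median-ratio scaling, a joint fit, covariates, a replicate block, single cohorts, libraries left out, and Cyber-T (a Bayesian t statistic, window of 101 genes, 10 prior degrees of freedom).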

Additional observations from a re-analysis of the deposited data

Results flagged for a closer look

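A library was looked for that lay far from the other 9 of its group, by Dixon's criterion, in 10 measures over 7 groups. Of the 70 sets tested, 10 held such a library, and chance flags about 1 in 20, or 3.5 sets, where values follow a normal distribution. The low complex IV paralogs gave 6 of them. Home cage replicate 3 had 23.7 FPKM of Cox6b2, against 3.77 to 6.85 FPKM in the other home cage libraries, and 31.2 FPKM of Cox8b, against 1.15 to 6.02 FPKM. In 0-0-2, replicate 9 had 15.8 FPKM of Cox6b2, against 2.28 to 5.11 FPKM, and 17.2 FPKM of Cox7a1, against 4.19 to 8.43 FPKM. Home cage replicate 3 and 0-0-2 replicate 9 had choroid plexus scores of 4.50 and 4.43, both in the higher cluster. In 14-7-0, replicate 4 was listed at 0 for Cox7a1, against 2.99 to 8.84 FPKM, and at 0 for Cox8b, against 0.624 to 6.09 FPKM; it is the library with 10279 genes at 0.

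Atp5g1 was far below the rest of its group in 3 libraries. These were 0-0-2 replicate 9 at 155 FPKM, against 213 to 266 FPKM, 14-7-0 replicate 9 at 139 FPKM, against 183 to 234 FPKM, and 14-7-2 replicate 9 at 86.0 FPKM, against 190 to 259 FPKM. All 3 are replicate 9, the library with the lowest Atp5g1 in 6 of 7 groups. Their GC slopes were -0.35, -0.16 and -0.58; the slope was negative for replicate 9 in 7 of 7 groups (-0.58 to -0.13), and the part of GC content in these values was not tested. The complex V score of home cage replicate 5 was 0.27, against -0.12 to 0.04 in the rest of that group.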

How the results depend on the processing

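Of 112 counts of called members under an alternative, 76 stayed within 1.5 times the reported count. Of 225 values of single called members, 175 kept direction and call, 47 kept direction only and 3 reversed. In 14-0-0 versus sedentary (5 called), 3 were called in the joint fit, in cohort 1 alone and by Cyber-T, and 1 with the choroid plexus score, with or without harvest cohort. In 14-7-0 versus sedentary (0 called), 1 was called in the joint fit and 2 in cohort 2 alone. In 14-7-2 versus sedentary (0 called), 1 was called, Uqcrh lower, with the score and with score and cohort. In 14-14-0 (2 called), 0 were called with the score, with score and cohort and in cohort 2 alone, and 4 by Cyber-T. In 0-0-2 (1 called), 0 were called with the score, with score and cohort, in either cohort alone, by Cyber-T and without sedentary replicate 6. In home cage (1 called), 0 were called with pseudocount 1, with no minimum mean, in the joint fit, with cohort, with the score, with both, in either cohort alone and with the GC slope, 2 without sedentary replicate 6 and 3 by Cyber-T. In 14-7-0 versus 14-0-0 (4 called), 2 were called with the score and with score and cohort. In 14-7-2 versus 14-7-0 (0 called), 1 was called in cohort 1 alone. For most of these fits the share of all genes called is not given here, so a changed count is not a result about the members. Cox6b2 reversed in 14-0-0 to -0.18 with the score and -0.14 with score and cohort, and in 14-7-0 versus 14-0-0 it went to 0.0127 with the score. The cause of these shifts was not tested. The GC slope and the joint cohort and score covariates were chosen after seeing the data.

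With a replicate block the count was 4 for 14-14-0, 3 for home cage and 1 for 14-7-2 versus 14-7-0, against 2, 1 and 0 without pairing, and the other counts stayed within 1.5 times. The share of all genes called with a replicate block is not given here. Same-numbered libraries did not all deviate together: at most 7 of 10 pairs had a correlation above 0.1 in any comparison. Each library chose among 10 of the other group, and between 1 and 8 of 20 correlated best with their own number. The 8 were in 14-7-0 versus 14-0-0. These counts do not settle whether the numbers pair samples, and the main fits were unpaired. Some numbers did share a feature across groups: the GC slope was negative in all 7 libraries of replicate 9 and positive in all 7 of replicate 8.

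The median over the 41 members changed by less than the spread between libraries under every alternative. That spread, as an SD within groups, was 0.10 to 0.16 log2 units. It exceeds the size of the largest reported median (-0.06, 14-7-0 versus 14-0-0), so a change of sign could stay within it. The sign of the median was not fixed. Against sedentary in cohort 1 alone, home cage had -0.02, 14-7-2 had 0.04, 14-14-0 had 0.03, and both 14-0-0 and 0-0-2 had -0.05. Compared with all libraries, the cohort 1 median was higher in 14-7-2 and 14-14-0 and lower in home cage, 14-0-0 and 0-0-2. That cohort holds sedentary replicate 4, whose part in these values was not tested. With the GC slope the 14-7-2 median was 0.02, and with median-ratio scaling the 14-14-0 median was 0.01. In cohort 2 alone, 14-7-2 versus 14-7-0 had -0.07. It kept its sign in 14-7-0 versus sedentary, in 14-7-0 versus 14-0-0 and between cohorts. With median-ratio scaling, genes called higher and lower over all genes went from 415 and 228 to 512 and 123 in 14-14-0, from 159 and 140 to 221 and 98 in home cage, from 208 and 216 to 252 and 170 in 14-7-0, from 264 and 468 to 324 and 384 in 14-7-0 versus 14-0-0, and from 465 and 1077 to 608 and 791 between cohorts.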
